A study of Mus musculus with 12 samples.

Results

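The genes Nt5e and Entpd1 encode the cell-surface enzymes CD73 and CD39. They are 2 of the 8708 genes that carry at least 1 named probe on these mouse cDNA arrays. Each was found by its gene symbol and is read by a single probe. Both were chosen by their values in T cells of the congenic strain B6.NODIdd1,5, where CD73 was high and CD39 was low. That contrast is therefore given as a description without a test, and tests are given for the other groups.

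CD39 removes phosphates from ATP and ADP outside the cell and leaves AMP. CD73, which is held in the membrane by a lipid anchor, then converts AMP to adenosine. ATP outside the cell activates P2 receptors on immune cells, while adenosine acts on its own receptors, some of which raise cAMP and restrain T cells. In mice both enzymes are known on regulatory T cells, CD39 is also known on B cells, myeloid cells and endothelium, and CD73 on subsets of T cells and in kidney tubules.

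The study hybridised 12 arrays with 2 colours in 6 groups of 2 arrays, and each array gives the ratio of an experimental sample to a sample of the strain B6. The non-obese diabetic strain NOD and the strain NOD.H2h4, which carries another haplotype of the major histocompatibility complex (MHC) on the NOD background, were each read in spleen T cells. The congenic strain B6.NODIdd1,5 carries 2 intervals of NOD origin, Idd5 and Idd1 (the MHC region), on the B6 background. It was read in spleen T cells and, against B6 kidney, in kidney cells. Spleen T cells of bone marrow recipients formed the last pair of groups, NODtoB6 (donor NOD, host B6) and B6toNOD (donor B6, host NOD). The origin of the T cells in the recipients, their residual host cells, any sort or gate, and the mice's age and sex were not given in the sources used here. For spleen T cells, a lower ratio can come from fewer cells that carry the RNA or from less RNA per cell, and these cannot be told apart. A ratio of 2 colours gives no level, so the identity of the cells could not be checked by whether their defining markers were present. No probe with 1 symbol was found for Foxp3, Il2ra or Ctla4, which mark regulatory and activated T cells. Of 13 listed markers of these cells, Gpr83, Itgae, Izumo1r and Nrp1 had probes, 5 in all, and their values or counts stand beside the results below.

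In RefSeq's annotation of the mouse genome GRCm38.p6, Nt5e is a protein-coding gene at chr9:88327609-88372089 and Entpd1 is a protein-coding gene at chr19:40612366-40741602. Neither gene lies on a chromosome of the Idd1 or Idd5 intervals. The position of each probe within its gene was not determined. The 250 bases before each annotated start are shown because both genes varied most in the same arrays and in opposite directions. All read 5′ to 3′ on the plus strand, on which both genes lie, and capitals mark matches to a motif. They cover chr9:88327359-88327608 for Nt5e, chr19:40612116-40612365 for the first start of Entpd1 and chr19:40659520-40659769 for its second start.
Nt5e: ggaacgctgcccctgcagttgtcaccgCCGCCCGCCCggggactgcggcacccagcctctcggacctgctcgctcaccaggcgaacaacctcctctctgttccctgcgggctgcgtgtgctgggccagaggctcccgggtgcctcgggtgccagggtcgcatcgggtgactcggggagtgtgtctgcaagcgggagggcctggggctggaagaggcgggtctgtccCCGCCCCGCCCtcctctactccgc
Entpd1, first start: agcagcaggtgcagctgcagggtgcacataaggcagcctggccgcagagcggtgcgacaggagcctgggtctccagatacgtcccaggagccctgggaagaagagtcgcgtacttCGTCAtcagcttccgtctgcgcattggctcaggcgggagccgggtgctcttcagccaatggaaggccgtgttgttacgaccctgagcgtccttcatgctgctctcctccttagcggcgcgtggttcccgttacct
Entpd1, second start: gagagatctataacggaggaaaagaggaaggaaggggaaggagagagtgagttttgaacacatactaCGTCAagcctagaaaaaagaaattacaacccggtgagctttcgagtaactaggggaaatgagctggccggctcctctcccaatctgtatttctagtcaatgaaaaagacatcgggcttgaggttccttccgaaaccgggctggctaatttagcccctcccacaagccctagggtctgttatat
The motifs TGACG, the core of the cAMP response element, ACGTG, and GGGCGG, the GC box, were searched on both strands, with overlapping matches counted. ACGTG is 1 form of the core of the hypoxia response element. The form GCGTG was not searched, so a lack of ACGTG does not mean that this core is absent. The Nt5e sequence held 4 matches to the GC box, all on the minus strand and in overlapping pairs, and no match to TGACG or ACGTG. Each Entpd1 sequence held 1 match to TGACG on the minus strand, 135 bases before the first start and 183 bases before the second start. Of 32851 promoters of the same length, 10756 held GGGCGG, 5836 held TGACG and 5444 held ACGTG. The Nt5e sequence was 72% G or C with 21 CpG pairs, against medians of 52.4% and 6 over all promoters. The values for Entpd1 were 62.4% and 18 at the first start, and 47.2% and 8 at the second. These matches describe letters in these windows and were not measured as binding sites.

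Each array had values for 18837 to 20558 of 20736 probes. Values were centred on each array's median, since the deposited medians ran from -0.87 to -0.01 on the log2 scale. Centring raised NOD.H2h4 by 0.81, B6toNOD by 0.73, B6.NODIdd1,5 kidney by 0.46, NODtoB6 by 0.22, B6.NODIdd1,5 T cells by 0.19 and NOD by 0.15. All values below are centred log2 ratios, positive where the experimental sample was above B6, unless stated. The 2 arrays of a group correlated at 0.510 to 0.767 over all probes, and arrays of other groups at -0.02 to 0.44. The direction of the 4 marrow recipient arrays is assumed, since no label names their dyes.

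In B6.NODIdd1,5 T cells, Nt5e was far above B6 and Entpd1 far below it. Nt5e was 4.13 on the first array and 4.55 on the second, or 17.5-fold and 23.4-fold above B6. Both arrays lay high, and the mean of 4.34 ± 0.29 (SD, n = 2), or 20.3-fold, was the 32nd highest of 18277 probes. Entpd1 was -2.92 and -4.81, or 7.57-fold and 28.0-fold below B6. The mean of -3.86 ± 1.34 (SD, n = 2), or 14.6-fold, was the 10th lowest. The Entpd1 arrays differed by 1.89, a gap larger than that of 93.7% of probes, so the size of the fall is poorly settled. These values chose the genes. For all probes in the same contrast, 32.5% passed an adjusted p of 0.05 by limma, from which nothing is read about these genes. On both arrays, 214 probes (1.17%) exceeded 2 and 56 probes (0.306%) lay below -2.

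The values of a probe's neighbours in the table's order and of other probes for one gene were examined beside this. The 20 probes nearest to Nt5e in the table, of which 17 and 18 had a value, had medians of -0.13 and 0.08 on those arrays, and those nearest to Entpd1 (19 and 18 with a value) had 0.04 and 0.08. Neither gene has a second probe. Among genes with several probes, 51 probes lay beyond 3 in either direction in this group. For 4 of them (7.84%) another probe of the same gene lay beyond 1 in the same direction, and for 5 (9.80%) another lay beyond 1 in the opposite direction. A large ratio of a single probe was thus seldom met by a second probe of its gene in these T cells. Whether the Nt5e and Entpd1 probes are exceptions was not tested. All 5 erythroid marker probes fell (median -1.10), and of 7 myeloid probes 1 rose and 3 fell (median -0.27). Of 6 tested B cell probes 1 rose and 2 fell (median -0.60), and of 4 tested T cell probes 1 fell and none rose (median -0.33). Of all probes, 32.5% passed in this contrast. Of the 5 probes for markers of regulatory and activated T cells 1 rose, an Nrp1 probe at 2.76 and 3.34, while the second Nrp1 probe was 0.48 and -0.43. The Itgae probe, which did not pass, was -2.22 and -1.26, and the median of the 5 was -0.05. The part of these markers in the result was not tested.

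**Figure D1:**
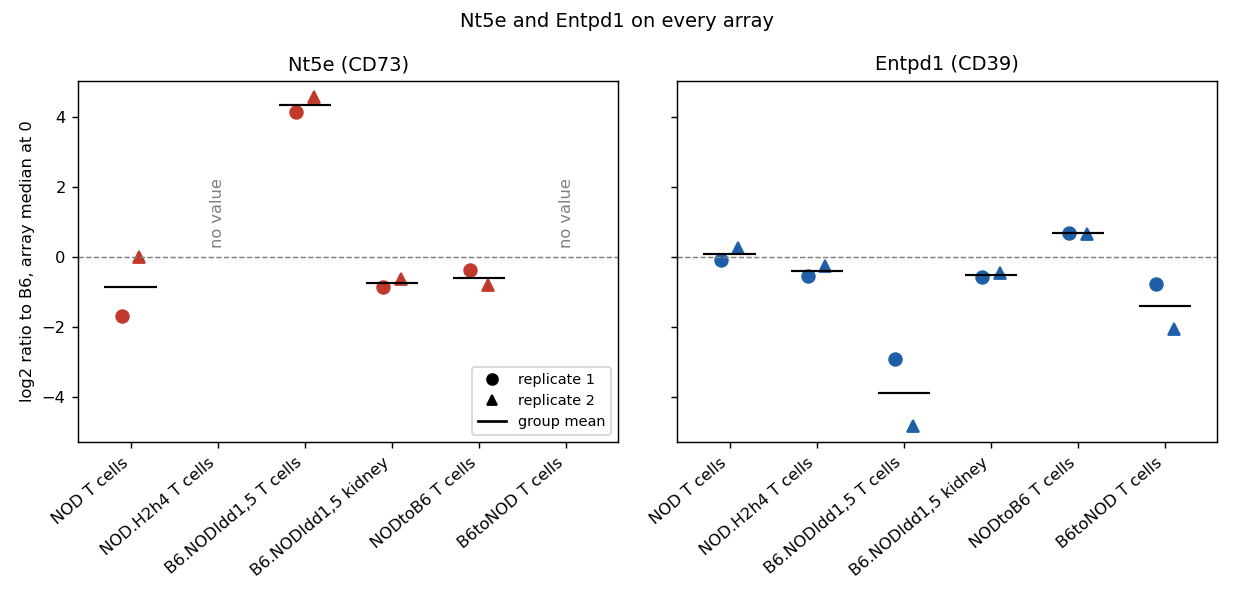
Centred log2 ratio to B6 of Nt5e (left) and Entpd1 (right) on each of 12 arrays, with circles and triangles for the replicates and a bar for the group mean. Nt5e stands at 4.13 and 4.55 and Entpd1 at -2.92 and -4.81 in B6.NODIdd1,5 T cells, and Nt5e has no value in NOD.H2h4 or B6toNOD.

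**Figure D2:**
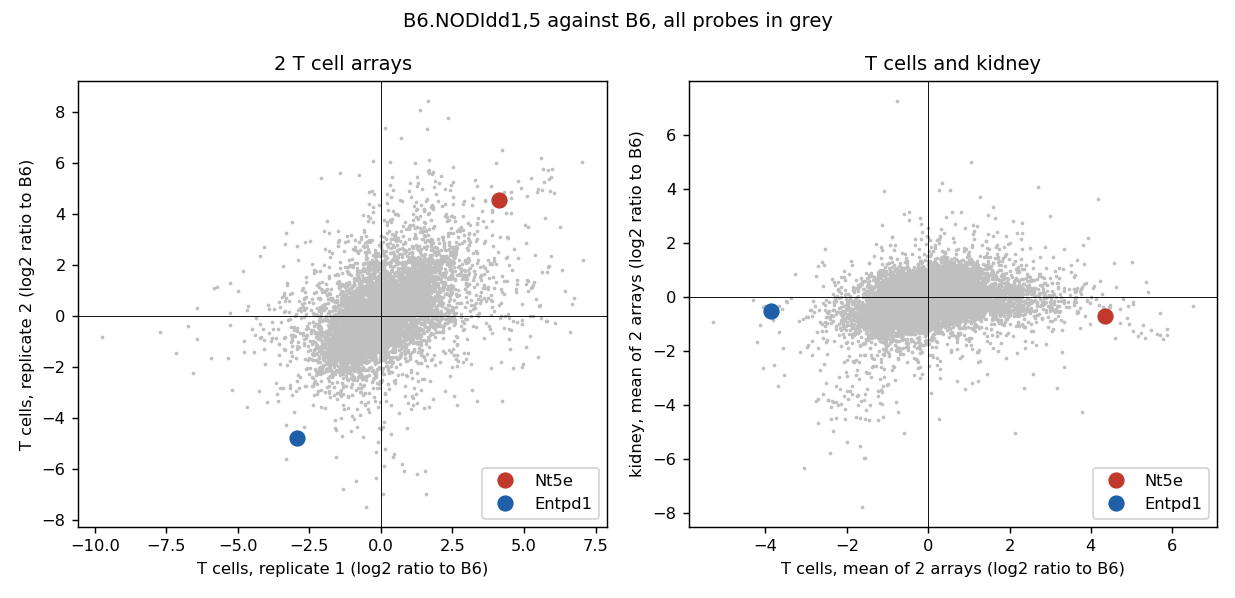
Log2 ratio to B6 in B6.NODIdd1,5 mice for all probes (grey), Nt5e (red) and Entpd1 (blue): the first T cell array against the second (left), and the T cell mean against the kidney mean (right). Both genes lie far out on both T cell arrays, while their kidney means of -0.74 and -0.51 lie within the grey cloud.

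In the kidney of the same congenic strain, set against B6 kidney, neither enzyme passed the test. Nt5e was -0.86 and -0.61 in kidney, both below B6 and on the other side of 0 from its T cell arrays. The mean of -0.74 ± 0.40 (SE of the limma fit, n = 2) did not pass (adjusted p = 0.219), with a 95% interval of -1.73 to 0.26. The difference from T cells was not tested, because the T cell arrays chose the gene. Entpd1 was -0.56 and -0.47 in kidney, below B6 on both arrays. Its mean of -0.51 ± 0.43 did not pass in the same limma fit (adjusted p = 0.405, interval -1.53 to 0.50). Of all probes, 35.3% passed in this comparison. Among 8 kidney tubule probes, 3 rose and none fell (median 0.56), and among 6 endothelial probes 1 rose and 1 fell. Among 7 myeloid probes 3 rose and 3 fell, and among 5 erythroid probes 2 rose and 1 fell. For regulatory and activated T cells 1 of 5 probes fell and none rose. The part of these markers was not tested. Without centring the Nt5e kidney value was -1.20 and passed (adjusted p = 0.0394, limma). It also passed on centred values without either NOD array (-0.74, adjusted p = 0.0374), where the spread is estimated without the gap between the NOD arrays given below.

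In T cells of the NOD strain itself, neither enzyme passed the test. Nt5e was -1.69 on the first array and -0.01 on the second, so 1 array lay well below B6 and the other at B6. This gap of 1.69 was larger than that of 99.5% of probes in the group, and the mean was -0.85 ± 0.40 (SE, adjusted p = 0.277 by limma, interval -1.85 to 0.15). Entpd1 was -0.07 and 0.25, on either side of B6. Its mean was 0.09 ± 0.43 (adjusted p = 0.975 by limma, interval -0.92 to 1.10), and it was -0.06 without centring. Of all probes, 13% passed in NOD T cells. There, 6 of 7 myeloid probes (median 0.56) and 4 of 5 erythroid probes (median 2.81) rose and none fell. Among 7 B cell probes, 4 rose and none fell (median 0.57). None of the 5 T cell probes passed, nor did any of the 5 for regulatory and activated T cells. The part of these markers in the NOD values was not tested. Differences from the congenic T cells were not tested, for the reason given above.

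In NOD.H2h4 T cells, Entpd1 was -0.53 and -0.25, below B6 on both arrays. The mean of -0.39 ± 0.43 did not pass (adjusted p = 0.508 by limma), and 41.4% of all probes did. As deposited, without centring, it was -1.20 and passed (adjusted p = 0.0422). Among 7 myeloid probes, 5 rose and 2 fell (median 0.41), and 3 of 4 tested erythroid probes rose and none fell (median 1.09). Among 7 B cell probes, 2 rose and 3 fell (median -0.80). For T cells 2 of 5 probes rose and none fell, and 1 of 5 for regulatory and activated T cells fell. The part of these markers was not tested. NOD.H2h4 minus NOD addresses the MHC haplotype on one background. For Entpd1 this difference was -0.48 ± 0.61 (adjusted p = 0.655 by limma, interval -1.91 to 0.95), where 20.2% of all probes passed.

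Nt5e had no value on either NOD.H2h4 array or either B6toNOD array, while its values on the other 8 arrays were complete. Of all probes, 31 lacked values on those 4 arrays and 4 (0.0193%) lacked them on those arrays alone. A blank gives no level, and none of these comparisons could be made for CD73.

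The marrow recipients differed in Entpd1. In NODtoB6 T cells it was 0.69 and 0.67, above B6 on both arrays with a gap under 0.02. In B6toNOD T cells it was -0.77 and -2.04, below B6 on both. The B6toNOD mean of -1.40 ± 0.43 (SE, n = 2), or a 2.65-fold reduction, passed the limma test (adjusted p = 0.0279, interval -2.42 to -0.39). Without centring it was -2.14 (adjusted p = 0.00376). Of all probes, 53.5% passed in that comparison, so passing alone did not set Entpd1 apart from the array as a whole. The NODtoB6 mean of 0.68 ± 0.43 did not pass (adjusted p = 0.283, interval -0.34 to 1.69), where 27.9% of all probes passed.

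Set directly against each other, NODtoB6 exceeded B6toNOD in Entpd1 by 2.08 ± 0.61, or 4.23-fold (adjusted p = 0.0313 by limma, interval 0.65 to 3.51). In this comparison 38.5% of all probes passed. The B6toNOD fall was -0.77 without the second B6toNOD array (adjusted p = 0.294), and -0.93 with all arrays scaled to one spread (adjusted p = 0.166). The direct difference depended on more. It lost its call in 12 of 24 other settings and changed sign in 2. These include leaving out any array of NOD, NOD.H2h4, kidney or NODtoB6, or the second of B6toNOD (adjusted p from 0.0502 to 0.134). The call was also lost with the sign of the NODtoB6 arrays turned (0.73, adjusted p = 0.343). The sign changed with the B6toNOD arrays turned (-0.73) and with all 4 marrow recipient arrays turned (-2.08), so the direction is that of the assumed dyes.

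Marker probes were read on the same arrays, where 53.5% of all probes passed in B6toNOD, 27.9% in NODtoB6 and 38.5% in their difference. In B6toNOD all 7 myeloid probes rose, with a median of 3.11, and the probe of S100a9, a neutrophil granule protein, was 6.37 and 6.93. In NODtoB6 all 7 rose as well, with a median of 0.96, and 6 of 7 fell in NODtoB6 minus B6toNOD (median -1.55). Of the 7 B cell probes, 4 rose and 1 fell in B6toNOD (median 1.07), and of 6 endothelial probes 1 rose and 2 fell (median -0.68). The B cell probes that rose were the 3 probes of Cd24a and 1 of Btk. Those of Blnk (-1.50 and -2.30), Cd79b (-0.75 and -3.39) and Ighm (-0.20 and -0.31) lay below B6 on both arrays. NODtoB6 was similar in both lists: 4 of 7 B cell probes rose and none fell (median 0.83). Of 6 endothelial probes in NODtoB6, 1 rose and 2 fell (median -0.90). Of the 3 tested probes for markers of regulatory and activated T cells, 1 rose and 2 fell in B6toNOD (median -0.75). Those that fell were Izumo1r at -0.70 and -0.79 and an Nrp1 probe at -2.26 and -0.62, and the second Nrp1 probe was 0.74 and 0.26. In NODtoB6, 1 of 4 such probes rose and none fell (median 0.44). Of the erythroid probes, 3 of 4 rose in B6toNOD (median 1.01) and 4 of 5 rose in NODtoB6 (median 2.81). Of 5 T cell probes, only that of Il7r could be tested in B6toNOD, where it rose (2.36 and 0.85). Those of Ccr7, Cd4 and Cd247 lacked a value on at least 1 B6toNOD array. In NODtoB6, 1 of 5 T cell probes fell and none rose (median -0.34). The part of all these markers in the Entpd1 values was not tested.

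Nt5e in NODtoB6 T cells was -0.38 and -0.80, below B6 on both arrays. The mean of -0.59 ± 0.40 did not pass (adjusted p = 0.324 by limma, interval -1.59 to 0.41).

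**Figure D3:**
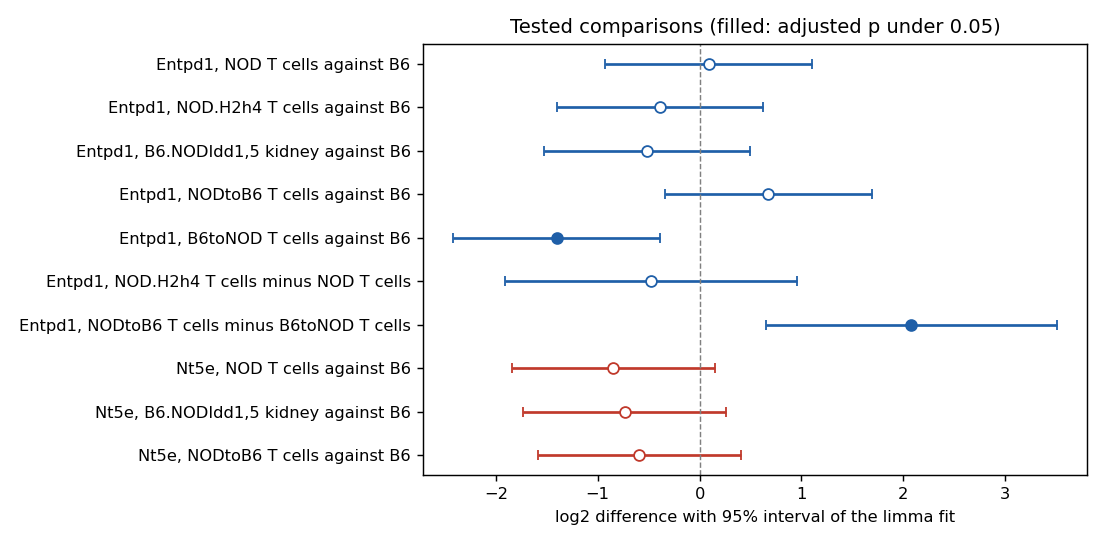
Log2 differences of the 10 tested comparisons for Entpd1 (blue) and Nt5e (red), with bars for 95% intervals of the limma fit and filled points for an adjusted p under 0.05. Entpd1 passed in B6toNOD against B6 (-1.40) and in NODtoB6 minus B6toNOD (2.08), and the intervals of the other 8 include 0.

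Ordered by group mean, Nt5e ran from NOD (-0.85) through B6.NODIdd1,5 kidney (-0.74) and NODtoB6 (-0.59) to B6.NODIdd1,5 T cells (4.34). The arrays of the first 3 groups overlapped between neighbours, and the T cell arrays stood 4.51 above the highest array of the group below. Entpd1 ran from B6.NODIdd1,5 T cells (-3.86) through B6toNOD (-1.40), kidney (-0.51), NOD.H2h4 (-0.39) and NOD (0.09) to NODtoB6 (0.68). Kidney and NOD.H2h4 overlapped. The places of NODtoB6 and B6toNOD rest on the assumed direction of their arrays: turned, Entpd1 would be -0.68 in NODtoB6 and 1.40 in B6toNOD, and Nt5e 0.59 in NODtoB6. As ordered, the steps from B6toNOD upward were at most 0.89, against a standard error of about 0.61 for a difference. Kidney ratios are against B6 kidney and T cell ratios against B6 T cells, so this order is of ratios and not of levels. Both probes varied more between replicates than most. The residual SD was 0.638 for Nt5e and 0.670 for Entpd1, against a median of 0.270 over all probes.

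The probes most like Nt5e over its 8 arrays were those of Klhl9 (Pearson r = 0.987), Chchd2 (0.987), Hoxc9 (0.980), Mtap (0.978) and Sco1 (0.974). Without the 2 congenic T cell arrays these fell to between 0.453 and 0.700, and 153 of 9348 probes exceeded 0.9 with them. The likeness to Nt5e thus rested largely on that group. Those most like Entpd1 over 12 arrays were Elof1 (0.945), Kidins220 (0.936), St3gal1 (0.932), Neu1 (0.928) and Dnajb4 (0.924). Elof1, which encodes a transcription elongation factor, kept 0.899 over the 10 other arrays, and the others had 0.585 to 0.700. Of 9347 probes, 8 exceeded 0.9. Arrays of a group share their samples' origin, so these values describe likeness only.

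The rest of the pathway was followed through 81 genes that handle ATP, AMP and adenosine or act below the adenosine receptors, of which 40 had a probe with 1 symbol, 50 probes in all. None of the 4 adenosine receptor genes had one. In NOD T cells 3 probes rose, 2 fell and 43 did not pass (median 0.03). In NOD.H2h4 the counts were 9, 10 and 28 (median -0.07), in kidney 4, 6 and 39 (-0.14), in NODtoB6 4, 6 and 37 (0.12), and in B6toNOD 12, 7 and 26 (0.04). For NOD.H2h4 minus NOD they were 7, 2 and 36 (-0.05), and for NODtoB6 minus B6toNOD 5, 11 and 26 (0.04). The medians over all probes lay between -0.04 and 0.01 in these comparisons. The probes named below passed in at least 2 comparisons in 1 direction, besides Ada and Adk, and passing is by limma with an adjusted p under 0.05. Of 76 such calls, 20 held in every other setting run for them and 36 held with any single array left out. For these calls, array signs were turned only in NODtoB6 minus B6toNOD, and only those of NODtoB6. Values given with a standard error are among the 36 unless stated, and the values without one include calls that were lost. The share of the list that passed was 10.4% in NOD, 40.4% in NOD.H2h4, 20.4% in kidney, 21.3% in NODtoB6 and 42.2% in B6toNOD. It was 20% in NOD.H2h4 minus NOD and 38.1% in NODtoB6 minus B6toNOD. In these 7 comparisons it did not exceed the share of all probes given above. In congenic T cells, which chose Nt5e and Entpd1, 7 probes were higher, 10 lower and 30 did not pass (36.2% against 32.5% of all probes), and nothing is read from this. Without centring, 36 of the 76 calls kept their direction and passed, 27 no longer passed and 13 changed sign. Not every call lost in this way is marked below.

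Other enzymes that remove phosphate from ATP and AMP changed in both directions. Entpd2, a cell-surface relative of CD39 that hydrolyses ATP, fell in kidney (-1.52 ± 0.40) and in NODtoB6 (-1.83 ± 0.40), each call being lost without either array of its group. In congenic T cells Entpd2 was -0.42 and -2.34. One probe of Entpd4, an intracellular relative, rose in B6toNOD (1.0 ± 0.095, but 0.27 without centring). It fell in NOD.H2h4 (-0.67 ± 0.095), NOD (-0.39) and kidney (-0.33), whereas a second Entpd4 probe was -2.48 in B6toNOD. Without centring, the first probe's calls in B6toNOD and NOD were lost. Among 5 intracellular nucleotidases that also act on AMP or related nucleotides, Nt5c2 shared the sign of CD73 in congenic T cells, at 2.94 and 1.60. Nt5m, the mitochondrial one, was -1.54 and -1.67 there, and it fell in kidney (-0.76). Nt5m rose in B6toNOD (0.71), where it was -0.03 without centring, and was lower in NODtoB6 than in B6toNOD (-1.11). Nt5c3b rose in NOD.H2h4 (0.57), where it was -0.24 without centring, and was higher there than in NOD (0.75).

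Among genes that remove adenosine, Ada, the deaminase that converts it to inosine, rose in NOD.H2h4 (0.71 ± 0.095, adjusted p = 0.000844), in kidney (0.85 ± 0.095, adjusted p = 0.000678) and in B6toNOD (0.69 ± 0.095, adjusted p = 0.000683). Without centring these values were -0.09, 0.39 and -0.05, so the direction in both T cell groups rests on the centring. Ada was -0.03 in NOD, 0.11 in NODtoB6 and 0.27 in congenic T cells. Adk, the kinase that returns adenosine to AMP, passed in no comparison. Its congenic T cell arrays stood at 4.94 and -0.19, and this gap widened its error everywhere. Without those arrays Adk passed in NOD.H2h4 (-0.78, adjusted p = 0.000668), NODtoB6 (0.45, adjusted p = 0.0105) and B6toNOD (-0.24, adjusted p = 0.0433). One Pnp probe, for the phosphorylase that acts on inosine, rose in B6toNOD (2.05 ± 0.093) and fell in NOD.H2h4 (-0.35), and it was lower in NODtoB6 than in B6toNOD (-2.04).

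Nucleoside transporters and ATP channels moved in several directions. A Slc28a2 probe, for a transporter that takes up purine nucleosides, fell in NOD.H2h4 (-0.55) and rose in kidney (0.50, but 0.039 without centring) and B6toNOD (0.38, but -0.35 without centring). Slc28a3, a related transporter, fell in NOD.H2h4 (-1.43 ± 0.34) and B6toNOD (-1.51 ± 0.34), each call being lost without 1 array of its group. Gja1, a connexin whose hemichannels can release ATP, fell in kidney (-2.88 ± 0.25), NODtoB6 (-1.81 ± 0.25) and NOD.H2h4 (-1.04). Panx1, the pannexin channel that releases ATP, fell in NOD (-0.47) and rose in kidney (0.53), NODtoB6 (0.30) and B6toNOD (0.74). Without centring these 3 rises of Panx1 were 0.070, 0.082 and 0.0085. P2rx4, an ATP-gated channel, rose in NOD (0.48) and NOD.H2h4 (0.43, but -0.38 without centring).

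Genes of AMP turnover inside the cell also changed in both directions. One probe of Ak4, a mitochondrial adenylate kinase, rose in NOD.H2h4 (1.59 ± 0.069) and B6toNOD (1.29 ± 0.069) and fell in NODtoB6 (-0.75 ± 0.069). These calls held in every other setting run for them. Array signs were not turned for them, and turning would reverse those in B6toNOD and NODtoB6. The same probe also rose in kidney (0.49, but 0.028 without centring), while a second Ak4 probe fell in NOD.H2h4 (-1.15). Ampd3, an AMP deaminase, rose in NOD.H2h4 (1.28 ± 0.12), B6toNOD (1.04) and NOD (0.60) and fell in NODtoB6 (-0.88). Without centring, its rises in B6toNOD (0.31) and NOD (0.45) did not pass. Ahcy, which hydrolyses adenosylhomocysteine to adenosine, had probes that disagreed in NOD.H2h4 (-1.39 and 0.41). So did Hprt, the salvage enzyme for hypoxanthine, with -0.65 and 0.67 in NOD.H2h4.

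Downstream of cAMP, Pde4a, a phosphodiesterase that degrades cAMP, fell in NODtoB6 (-2.64 ± 0.40) and in kidney (-1.47). Pde4d, another, rose in B6toNOD (1.08 ± 0.082) and NOD (0.36). An Adcy7 probe, for an adenylyl cyclase of immune cells, rose in NODtoB6 (0.59) and fell in B6toNOD (-0.54). A probe of Prkar1a, a regulatory subunit of protein kinase A, fell in B6toNOD (-1.21 ± 0.15) and rose in NOD.H2h4 (0.49, but -0.31 without centring). Creb1, a transcription factor that cAMP signalling activates, rose in NOD.H2h4 (1.26). In congenic T cells Pde3b, a further phosphodiesterase, stood at 3.69 and 3.49, and it is given there without a test.

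**Figure D4:**
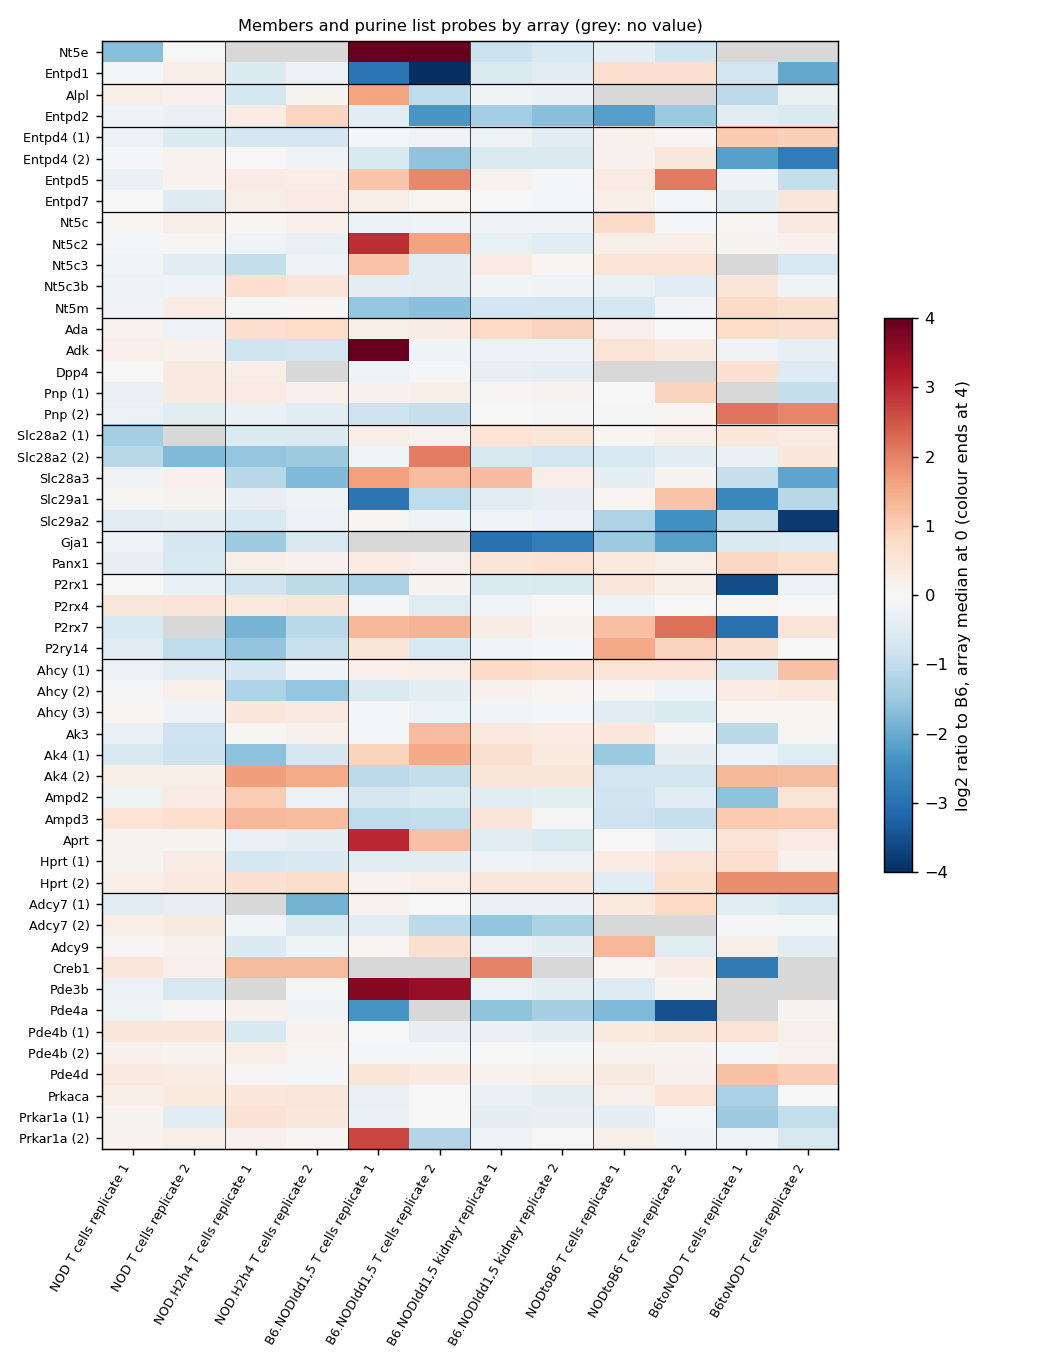
Centred log2 ratio to B6 of Nt5e, Entpd1 and the 50 probes of the purine list (rows, grouped by role) on 12 arrays (columns), from blue (below B6) to red (above B6), with the colour ending at 4 and grey for no value. Nt5e is dark red and Entpd1 blue in both B6.NODIdd1,5 T cell arrays, and Pde3b (3.69 and 3.49) is the list's other row that is strongly red on both.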

How the data were processed

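Spleen T cell or kidney RNA of 6 groups, 2 arrays each, was measured against B6. The authors deposited log2 ratios, with Cy5 for the experimental RNA and Cy3 for B6 per the labels of the 8 strain arrays. Upstream tools, normalisation and the dyes of the marrow recipient arrays were not given in the sources used here. For 146 values the ratio was a fixed ceiling and was treated as missing, none of them in Nt5e or Entpd1. No spot intensities were used, so signal over background could not be judged. Values were centred on each array's median.

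Of 20736 probes, 13033 carry 1 gene symbol, 312 several and 7391 none, by the platform annotation, and 12850 of the 13033 were found in RefSeq. Group means were fitted probe by probe over the 12 arrays in limma 3.58.1, under R 4.3.3, using lmFit and eBayes. Residual degrees of freedom were 6 for Entpd1 and other complete probes and 4 for Nt5e, which had values on 8 arrays. Benjamini-Hochberg adjustment ran over all probes of a comparison, with a threshold of 0.05. The script was tested on simulated data. A mean ratio against 0 leaves out the spread of B6. Replicates are not stated to be separate animals, so p-values measure only the spread between these arrays, which may be technical, and their number limits the precision.

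Replicate numbers did not pair the arrays. Over 15 pairs of groups the correlation of same-numbered deviations was -0.03 to 0.02. Named besides Nt5e and Entpd1 were the 5 probes most like each, purine list probes that passed in at least 2 comparisons in 1 direction, and Ada and Adk. The genes and lists were chosen with earlier results of these data known. Genes named in congenic T cells, S100a9 and second probes fall outside this rule and were chosen after their values were seen. Alternatives were other centring, scaling, position, missing-value and probe rules, a replicate block, and leaving out arrays.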

Additional observations from a re-analysis of the deposited data

Results flagged for a closer look

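Nt5e differed between tissues of B6.NODIdd1,5 mice in sign on every array: both T cell arrays lay above B6 (4.13 and 4.55) and both kidney arrays below it (-0.86 and -0.61). The means differed by 5.08. This difference was not tested, because the T cell arrays chose the gene. Their mean was 4.34, and the kidney mean of -0.74 did not pass against B6 (adjusted p = 0.219 by limma, interval -1.73 to 0.26). The share of all probes with opposite signs in the 2 tissues was not counted.

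Entpd1 differed between the marrow recipients, with NODtoB6 above B6toNOD by 2.08 (adjusted p = 0.0313 by limma, adjusted p from 0.00665 to 0.343 over 24 other settings). In the assumed direction, both NODtoB6 arrays lay above B6 and both B6toNOD arrays below it. The difference was -0.73 with the B6toNOD arrays turned and -2.08 with all 4 arrays turned.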

How the results depend on the processing

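Of the tested comparisons of Nt5e and Entpd1, Entpd1 in kidney and in NOD.H2h4 minus NOD and Nt5e in NOD kept direction and side of the threshold in every setting. So did both genes in NODtoB6, except with the array signs turned. As deposited, without centring, Entpd1 was -0.061 in NOD, -1.20 in NOD.H2h4 and passed there, and Nt5e was -1.20 in kidney and passed. The counts of probes that passed were then 273 in NOD and 12602 in NOD.H2h4. With arrays scaled to one spread, Entpd1 was -0.93 in B6toNOD and 1.71 in NODtoB6 minus B6toNOD, neither passing, and the counts were 6443 (NOD), 5860 (B6toNOD) and 4177 (that difference), against 2613, 9411 and 6439. Without kidney arrays the difference was 2.08 (adjusted p = 0.0519) and the NOD count 1657. With the NODtoB6 arrays turned the difference was 0.73. In alternatives chosen after seeing the data, it was -0.73 with the B6toNOD arrays turned and -2.08 with all 4 marrow recipient arrays turned. Entpd1 was then 1.40 in B6toNOD under both and -0.68 in NODtoB6 under the latter, where Nt5e was 0.59.

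Leaving out 1 array at a time, Entpd1 ranged from -2.04 to -0.77 in B6toNOD, from -0.074 to 0.25 in NOD and from 1.44 to 2.72 in the marrow difference, whose call was lost without 9 of 12 arrays: those of NOD, NOD.H2h4, kidney and NODtoB6 and the second of B6toNOD. Nt5e in kidney ranged from -0.86 to -0.61. Counts ranged from 242 to 3315 in NOD, 5158 to 9833 in NOD.H2h4, 3240 to 8342 in kidney, 3084 to 6946 in NODtoB6 and 1507 to 5264 in NOD.H2h4 minus NOD. The lone array left in a group is assumed to vary like the other groups. With a replicate block, Entpd1 in B6toNOD was -1.40 (adjusted p = 0.0307) and the marrow difference 2.08 (adjusted p = 0.0352). The block changed no call of Nt5e or Entpd1 and ended 4 of 76 purine calls. Without both congenic T cell arrays, an alternative chosen after seeing the data, Entpd1 passed in B6toNOD (adjusted p = 0.00538) and in the difference (adjusted p = 0.00665).

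Purine list values changed sign mostly without centring. In NOD.H2h4 they were then -0.24 for Nt5c3b, -0.40 for an Ahcy probe, -0.14 for an Hprt probe, -0.094 for Ada, -0.38 for P2rx4 and -0.31 for Prkar1a. In B6toNOD they were -0.025 for Nt5m, -0.38 for Ahcy, -0.32 for Hprt, -0.049 for Ada and -0.35 for Slc28a2. Ahcy in NOD.H2h4 minus NOD was -0.22, and Panx1 in the marrow difference 0.073. With a running median subtracted, P2rx4 was -0.018 in NOD.H2h4 and an Ahcy probe 0.18 in the marrow difference. With the NODtoB6 arrays turned, that difference was 0.42 for Ahcy, 2.34 for Gja1, -0.21 for Adk and -0.051 for Adcy7. The causes were not tested beyond what each alternative does by construction.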

Other observations

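Over genes read by exactly a pair of probes, the group means of both probes correlated weakly in every group. Across genes, which are not independent replicates, Pearson's r was 0.185 in NOD (2106 genes), 0.0636 in NOD.H2h4 (2075), 0.032 (1751) for congenic T cells and 0.0914 (1992) for congenic kidney, and 0.137 in both NODtoB6 (1922) and B6toNOD (1533). For some genes all probes lay on the same side of B6 in B6toNOD, but the number of such genes was not counted. The 3 probes of Ltf, which encodes the neutrophil granule protein lactoferrin, stood between 1.63 and 3.11 on both B6toNOD arrays. The 3 probes of Cd24a, a membrane protein found on B cells among others, stood between 0.68 and 1.73 there. Those of Nrp1 lay on opposite sides of B6 in B6toNOD (0.74 and 0.26 against -2.26 and -0.62). In NOD T cells the Cd24a probes ran from -0.01 to 1.05.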
